A study of Mus musculus with 2 samples.

Results

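Protein phosphatase subunit genes were taken as the genes whose deposited name begins with Ppp1 to Ppp6 or Ppm1, together with Pptc7. Of these, 55 genes were listed in at least 1 of 2 libraries, 39 in replicate 1 and 54 in replicate 2, and 38 were listed in both. A site was a listed position with at least 20 reads in replicate 2. By that rule the family held 146 sites in 34 genes and on 39 transcripts, out of 16212 sites in 3919 named genes in that library. Replicate 1 values were joined on transcript and position. They were present for 108 of the 146 sites, and 66 sites in 18 genes had at least 20 reads in both libraries. In the text below, paired values give replicate 1 first and replicate 2 second.

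Both libraries came from wild-type mouse retinal organoids of the Rx:GFP line at day 6, grown from stem cells and kept in AGN at 0.1 µM throughout. They carry the same batch label and form 1 group with n = 2, so no condition was compared with another. Whether the libraries came from separate cultures is not stated, and the spread between them may therefore be technical. Native poly(A) RNA was read on nanopores, and each listed position carries a score from 0 to 1 for N6-methyladenosine (m6A), named fraction modified in the tables, and a coverage in reads. The denominator of the fraction is not stated, so it is not read as a share of the covering reads. Median coverage over listed positions of the family was 14 reads in replicate 1 and 13.5 in replicate 2, with highest values of 195 and 307. Genes listed in each library included the eye-field genes Rax, Six3, Six6, Pax6 and Lhx2 and Emx2, a gene of the forebrain outside the eye; these are examples and no tally of either list. Of 7 pluripotency markers and 4 mesoderm and endoderm markers none was listed. A listing shows reads over a suitable motif and is no expression level.

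Protein phosphatases remove phosphate from serine and threonine and so oppose kinases. The phosphoprotein phosphatases work as complexes: a small set of catalytic subunits is shared among many regulatory subunits, which choose the substrate, place the enzyme in the cell or inhibit it. PP2A usually assembles a catalytic subunit, a scaffold and a variable B subunit. The metal-dependent phosphatases (Ppm1 genes and Pptc7) form a separate family whose members act largely as single chains. In m6A biology, METTL3 and its partners methylate adenosines in a short consensus, and the mark influences splicing, translation and decay of the mRNA.

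All sites lay on 4 motifs of 5 bases, in the family and in all genes alike, so this is no trait of the family. The motifs are written 5′ to 3′ in DNA letters as the tables give them, with the central adenosine of the consensus in capitals. They are shown because the median fraction modified differed more between motifs than between kinds of subunit.
motif ending in A: ggAca
motif ending in T: ggAct
motif ending in C: ggAcc
motif beginning with A: agAct

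Closely spaced sites are shown next, since sites within 20 nt had nearly equal coverage, while their fractions differed widely in some pairs and little in others. Bases that the tables do not give are written n, and the order follows the transcript.
Ppp2r2a, positions 1975, 1980 and 1985: ggActggActggAct
Ppp4c, positions 385 and 394: agActnnnnggAcc
Ppp4c, positions 664 and 675: ggAccnnnnnnggAca
Ppp2r2d, positions 1401 and 1410: ggAcannnnggAct
Ppp2r5e, positions 2144, 2158 and 2169: ggActnnnnnnnnnggAcannnnnnggAct
Ppp4r3a, positions 3601 and 3613: ggAccnnnnnnnagAct
Ppp4r2, positions 1578 and 1598: agActnnnnnnnnnnnnnnnggAcc

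The family as a whole was modified at levels close to those of all genes. In replicate 2 the median fraction was 0.310 over the 146 sites, against 0.345 over all 16212 sites. A fraction of at least 0.5 was seen at 48 sites (32.9%), against 37.5% of all sites. Fractions of at least 0.9 were listed at 16 sites (11.0%; all sites 10.6%) and fractions under 0.1 at 28 sites (19.2%; all sites 16%). At the 66 sites with 20 reads in both libraries the median was 0.338 and 0.340, a mean of 0.339 ± 0.00110 (SD, n = 2), against 0.368 ± 0.00940 (SD, n = 2) over the 5221 such sites of all genes. At least 1 site was present in 34 of the 54 genes listed in replicate 2 (63.0%), where the share over all listed genes was 48.6%.

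**Figure D1:**
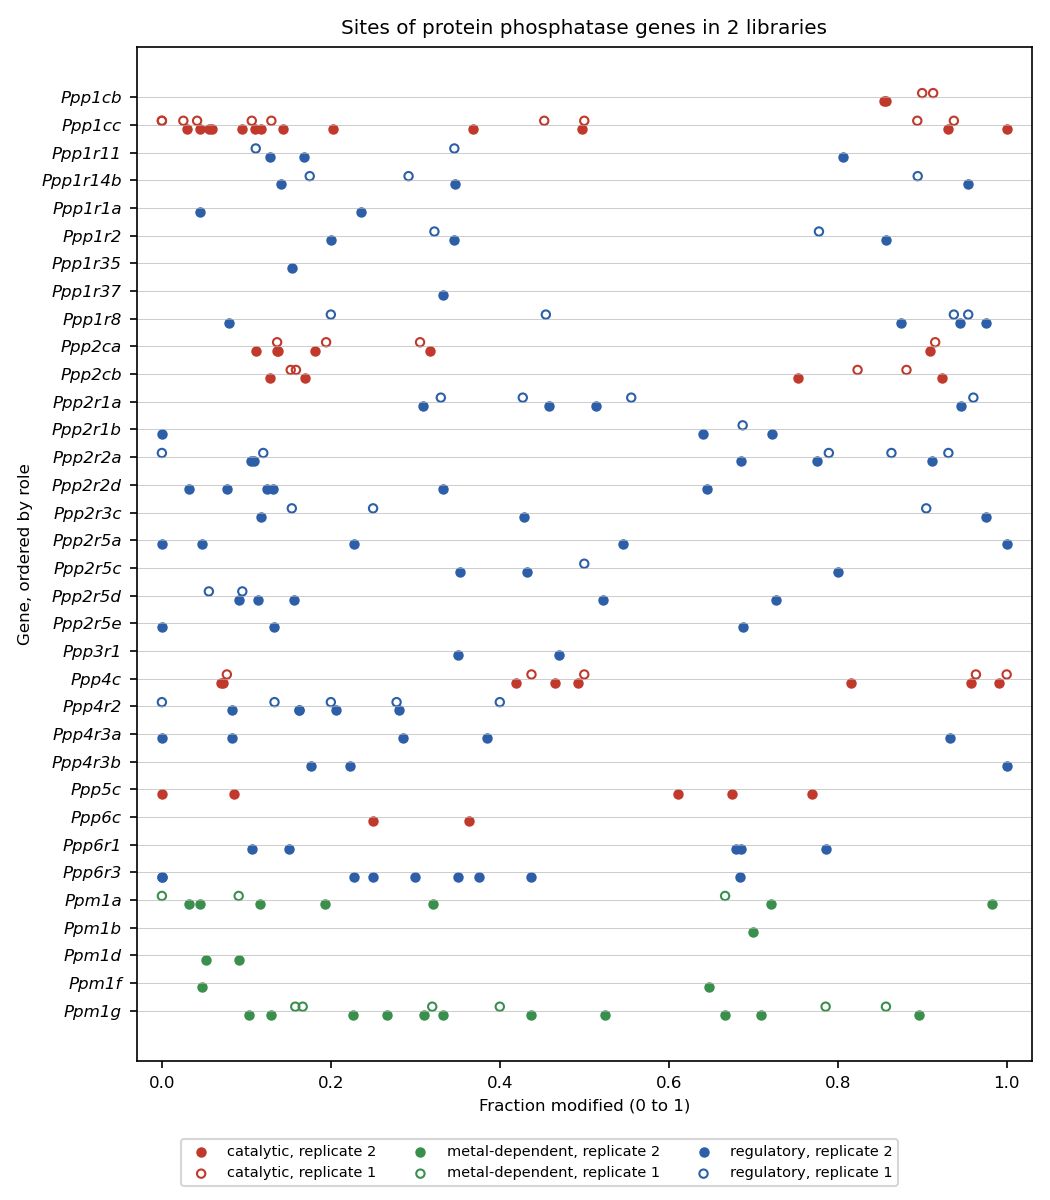
Fraction modified (x axis, 0 to 1) at each site of the 34 genes (y axis, ordered by role). Filled points are replicate 2 (20 or more reads) and open points replicate 1 where it also had 20 or more reads; red marks catalytic, blue regulatory and green metal-dependent genes. Most genes with several sites spread over much of the scale, for example Ppp1cc from 0.0292 to 1 in replicate 2.

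Sites of 1 gene often covered much of the scale. Of 25 family genes with 3 or more sites, 23 (92.0%) spanned more than 0.5 in replicate 2, beside 74.5% of all genes with 3 or more sites. The exceptions were Ppp4r2, with 5 sites from 0.0833 to 0.281, and Ppp2r5c, with 3 sites from 0.353 to 0.8.

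The catalytic subunits were compared with the regulatory subunits, and the sign of the difference depended on the setting. The catalytic class had 40 sites in 7 genes and the regulatory class 83 sites in 22 genes. At sites with 20 reads in both libraries (25 catalytic sites in 5 genes, 32 regulatory sites in 11 genes), the catalytic median was 0.438 and 0.368 and the regulatory median 0.338 and 0.346. The catalytic class was thus higher by 0.0993 in replicate 1 and by 0.0220 in replicate 2, a mean of 0.0607 ± 0.0546 (SD, n = 2). An exact paired permutation test over the 2 libraries gave two-sided p = 0.5, the smallest value that 2 libraries allow. At all replicate 2 sites the order was turned, with 0.284 for catalytic and 0.309 for regulatory genes. Fractions of at least 0.5 made up 32.5% of the sites of each class there. The sign also turned with a minimum of 50 reads (-0.0791) and of 10 reads (-0.137), and with 1 transcript per gene (mean 0.0187) and over gene medians (mean 0.0144) the libraries differed in sign. The 5 metal-dependent genes held 23 sites with a median of 0.310 in replicate 2. Their 9 sites with 20 reads in both had medians of 0.320 and 0.267.

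The classes differed in depth. Median coverage of sites in replicate 2 was 96.5 reads for catalytic, 42 for regulatory and 52 for metal-dependent genes. Taken without sign, the median gap between replicates was 0.0248 at catalytic sites and 0.0637 at regulatory sites. Whether depth accounts for this was not tested.

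**Figure D2:**
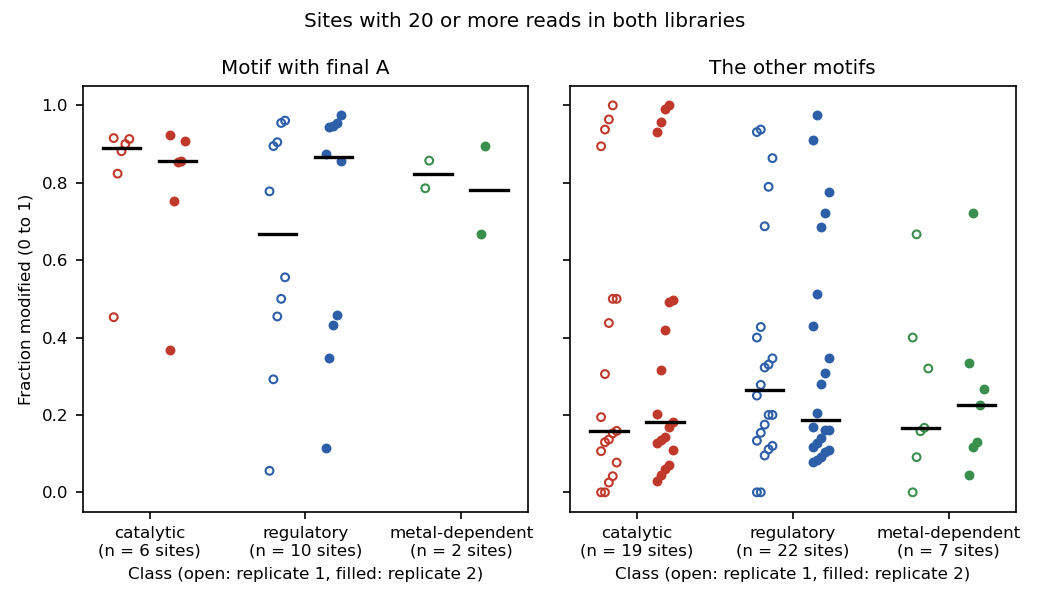
Fraction modified (y axis) at sites with 20 or more reads in both libraries, by class, with the motif ending in A on the left and the other 3 motifs on the right. Points are sites (open: replicate 1, filled: replicate 2) and bars are medians; within the left panel the regulatory median was 0.667 in replicate 1 and 0.866 in replicate 2, while the catalytic median was 0.891 and 0.856.

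By motif, the family followed the order of all sites in having the highest fractions at GGACA. Its 39 GGACA sites had a median of 0.684 in replicate 2, against 0.667 over all GGACA sites. The medians were 0.204 at 34 AGACT sites (all sites 0.263), 0.195 at 28 GGACC sites (0.231) and 0.194 at 45 GGACT sites (0.230). At the 66 sites with 20 reads in both libraries, the GGACT median of the family was above that of all genes in each library, and the GGACC median in replicate 1 only (0.306 against 0.217; replicate 2 0.226 against 0.227). There the mean of the 2 library medians was 0.403 ± 0.0291 (SD, n = 2) at 20 GGACT sites, against 0.258 over all such GGACT sites, and 0.266 ± 0.0564 (SD, n = 2) at 11 GGACC sites, against 0.222. It was 0.849 at 18 GGACA sites (all genes 0.677) and 0.162 at 17 AGACT sites (0.258). A fraction of at least 0.5 was reached at 23 GGACA sites (59.0%; all GGACA sites 64.1%), 13 GGACT sites (28.9%; 23.2%), 6 AGACT sites (17.6%; 24.1%) and 6 GGACC sites (21.4%; 21.4%). GGACT made up 30.8% of the family's sites (95% Wilson interval 23.9% to 38.7%), beside 24.2% of all sites. GGACA made up 26.7% (20.2% to 34.4%), below its share of 35.6% over all sites. The order of these shares depended on the minimum: with 10 reads GGACA was the more frequent (29.9% against 28.7%), and with 50 reads both had 27.5%. These intervals cover counting error only, and sites that share a gene or transcript are not independent.

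Exceptions to the order by motif were seen in both directions. GGACT sites of at least 0.9 numbered 6 of 45 (13.3%), beside 3.9% of all GGACT sites. They lay in 4 genes: Ppp1cc and Ppp4c, each with a position and its probable counterpart on another transcript, Ppp1r8 and Ppp2r2a. GGACA sites under 0.1 numbered 3 of 39 (7.69%; all GGACA sites 5.66%). They were position 829 of Ppp5c with 0 in both libraries (16 and 54 reads), position 679 of Ppp1r1a with 0 and 0.0455 (18 and 25 reads), and position 1589 of Ppp6r3 with 0 over 25 reads in replicate 2.

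PP1 has few catalytic subunits and many partners. Ppp1cc encodes its gamma catalytic subunit (chromosome 5, 122296341 to 122313336; coordinates of genes as in the tables, which name no build). On transcript ENSMUST00000102528.10 it carried 7 sites of high depth, with 112 to 150 reads in replicate 1 and 235 to 295 in replicate 2. The GGACT at position 559 had 0.894 and 0.931, a mean of 0.912 ± 0.0257 (SD, n = 2). Another GGACT at position 1283 had 0.0254 and 0.0292, a mean of 0.0273 ± 0.00269 (SD, n = 2). A GGACT at position 1893 was intermediate, with 0.5 and 0.497, and one at position 395 was low, with 0.0417 and 0.0597. The same motif in 1 transcript thus covered most of the scale, and its order was the same in both libraries. The GGACA at position 1468 had 0.453 and 0.368. AGACT sites at positions 1793 and 2358 had 0.130 and 0.203, and 0.106 and 0.110. A further 6 sites lay on 2 other Ppp1cc transcripts with 22 to 29 reads in replicate 2. Ppp1ccb, a gene with a closely similar name, was listed with at most 12 reads, and reads of near-identical copies can be divided between genes.

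Ppp1cb, the beta catalytic subunit (chromosome 5, 32616187 to 32674777), had 2 GGACA sites by the rule, both high. They were position 540 with 0.913 and 0.855 (38 and 92 reads) and position 795 with 0.9 and 0.857 (40 and 97 reads). Ppp1ca was not among the genes analysed here.

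Among PP1 partners, Ppp1r14b, an inhibitor that acts when phosphorylated (chromosome 19, 6952336 to 6954692), was the deepest, with 191 to 195 and 301 to 307 reads. Its GGACA at position 600 had 0.895 and 0.955, while the GGACA 81 nt downstream at position 681 had 0.292 and 0.347. Its GGACT at position 842 had 0.175 and 0.141. The 3 sites kept their order in both libraries and did not overlap between them.

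Ppp1r8 encodes NIPP1, a nuclear inhibitor of PP1 (chromosome 4, 132554240 to 132570480). It held 4 sites, 3 of them high in replicate 2. The GGACT at position 844 had 0.938 and 0.976 (21 and 48 reads) and the GGACA at position 1634 had 0.955 and 0.944 (34 and 69 reads). The GGACT at position 963 was low, with 0.2 and 0.0789 (22 and 50 reads). At position 908, a GGACA, the libraries disagreed: 0.455 in replicate 1 and 0.875 in replicate 2 (21 and 49 reads).

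Ppp1r11, inhibitor 3, had a high GGACA at position 369, with 0.807 over 118 reads in replicate 2 and no listed value in replicate 1. Its GGACC at position 589 had 0.111 and 0.169 (62 and 117 reads). At position 661, a GGACT, replicate 1 had 0.346 over 45 reads and replicate 2 had 0.128 over 78. Ppp1r2, inhibitor 2, had 0.778 and 0.857 at the GGACA of position 2061 (20 and 23 reads) and 0.323 and 0.346 at the AGACT of position 1070 (36 and 62 reads). Its GGACT at position 2104 had 0.2 over 23 reads in replicate 2. Single sites of Ppp1r35 (0.154 over 35 reads) and Ppp1r37 (0.333 over 20 reads) and a second Ppp1r1a site, with 0.385 and 0.235 (18 and 25 reads), completed the PP1 partners.

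The PP2A catalytic genes had 10 sites, 8 of them with 20 reads in both libraries. Ppp2ca (chromosome 11, 51989508 to 52018605; transcript ENSMUST00000020608.2) had 0.915 and 0.909 at the GGACA of position 632 (147 and 260 reads). Its AGACT at position 1286 had 0.136 and 0.136 (172 and 289 reads), a mean of 0.136 ± 0.000495 (SD, n = 2). The GGACC at position 1423 had 0.306 and 0.317 and the AGACT at position 1581 had 0.194 and 0.181. At the GGACT sites of positions 2186 and 2335, with 13 reads each in replicate 1, the values lay further apart, at 0.333 and 0.138, and 0.2 and 0.111 (41 and 43 reads in replicate 2). In Ppp2cb, its paralogue (chromosome 8, 34089653 to 34109469), the GGACA sites at positions 776 and 956 had 0.881 and 0.924, and 0.824 and 0.753. The AGACT at position 1210 had 0.159 and 0.170 and the GGACC at position 1367 had 0.152 and 0.128, over 69 to 78 reads in replicate 1 and 136 to 146 in replicate 2. In both genes each GGACA site lay above each site of another motif, in both libraries.

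Of the PP2A scaffold genes, Ppp2r1a (chromosome 17, 21165573 to 21186178; transcript ENSMUST00000007708.13) had 4 sites over 126 to 151 and 255 to 282 reads. None was low. The GGACA at position 1735 had 0.961 and 0.946, the GGACA at position 1492 had 0.556 and 0.458, and the GGACC sites at positions 1905 and 2276 had 0.427 and 0.514, and 0.330 and 0.309. The libraries gave the sites at 1492 and 1905 in opposite order, so these 2 are not separated. Ppp2r1b, the other scaffold, had an AGACT at position 2029 with 0.688 and 0.722 (23 and 56 reads). In replicate 2 it also had an AGACT at position 389 with 0.640 over 42 reads and a GGACT at position 224 with 0 over 41 reads.

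The B55 subunit gene Ppp2r2a (chromosome 14, 67251505 to 67309893; transcript ENSMUST00000089230.5) held the tandem run printed above, in which GGACT occurs 3 times without a gap. All 3 copies were high in both libraries, over 38 and 61 reads at each. The upstream copy had 0.790 and 0.686, the middle copy 0.931 and 0.911, and the downstream copy 0.864 and 0.775. The middle copy was the highest in each library and the upstream copy the lowest. The 20 GGACT sites of the family with 20 reads in both libraries, these 3 included, had medians of 0.423 and 0.382. In the same transcript the GGACT at position 2188 had 0.12 and 0.105 (30 and 47 reads) and the AGACT at position 1617 had 0 and 0.109 (32 and 55 reads). Adjacent copies share a read and the current of neighbouring bases in the pore, so their values are not independent.

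Ppp2r2d, a B55 subunit known for its part in mitotic exit, had 6 sites over 37 to 44 reads in replicate 2 and at most 17 in replicate 1. The highest was the GGACA at position 1401, with 0.538 and 0.645, and the GGACT 9 nt downstream had 0.0769 and 0.132. The others lay between 0.0323 and 0.333 in replicate 2. Ppp2r3c, a B double-prime subunit, had 0.905 and 0.976 at the GGACA of position 1372 (23 and 45 reads). Its GGACC at position 622 had 0.250 and 0.118 (22 and 42 reads), and its AGACT at position 1606 had 0.154 and 0.429 (23 and 48 reads).

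The B56 genes, whose subunits bind short docking motifs of substrates, held 16 sites in 4 genes with a median of 0.290 in replicate 2. Ppp2r5a ran from 0 at position 883 to 1 at position 2537, a GGACA with a fraction of 1 in both libraries (11 and 30 reads). In Ppp2r5d the GGACA at position 2498 was low, with 0.0556 and 0.114 (28 and 72 reads), as was the GGACC at position 2592 with 0.0952 and 0.0909 (29 and 70 reads). Its GGACC at position 135 had 0.6 and 0.727 (10 and 39 reads). Ppp2r5c had a GGACA at position 955 of transcript ENSMUST00000221715.1 with 0.5 and 0.432 (28 and 62 reads). A GGACA at position 954 of its transcript ENSMUST00000109832.2 had 0.8 over 22 reads in replicate 2, and whether both are the same genomic base was not determined. Ppp2r5e had 3 sites in the stretch printed above and 22 reads at each in replicate 2, with 0.133, 0.688 and 0 from upstream to downstream.

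Calcineurin is the calcium-dependent phosphatase. Its regulatory gene Ppp3r1 had a GGACA at position 211 with 0.471 over 25 reads and a GGACT at position 1780 with 0.350 over 50 reads in replicate 2, the latter with 0 over 14 reads in replicate 1. The catalytic genes Ppp3ca and Ppp3cb had at most 14 and 18 reads at any position.

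PP4 acts in DNA repair and centrosome maturation, among other processes. Its catalytic gene Ppp4c (chromosome 7, 126385038 to 126391668; transcript ENSMUST00000032936.7) had a high GGACT at position 1171, with 0.964 and 0.991 (57 and 114 reads), a mean of 0.977 ± 0.0193 (SD, n = 2). The GGACT at position 277 had 0.0769 and 0.0702 (47 and 96 reads), and the GGACC at position 664 had 0.5 and 0.492 (50 and 106 reads). In replicate 2 the AGACT at position 385 had 0.816 over 96 reads and the GGACC 9 nt downstream 0.0723 over 97 reads. That AGACT was the highest of the 34 in the family. Positions 664 and 675, 11 nt apart, had close values of 0.492 and 0.465.

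The regulatory PP4 genes were lower or shallower. Ppp4r2 had 5 sites, 4 of them AGACT, between 0 and 0.4 in replicate 1 (20 to 25 reads) and between 0.0833 and 0.281 in replicate 2 (49 to 58 reads). Ppp4r3a had 5 sites at exactly 20 reads in replicate 2, from 0 to 0.933 at the GGACC of position 3601, and Ppp4r3b had 3 with 21 to 22 reads, from 0.176 to 1. The Ppp4r3b site at 1 was a GGACA at position 3394 and also had 1 over 8 reads in replicate 1.

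Ppp5c, which encodes a phosphatase with its own docking domain for chaperones (chromosome 7, 16738565 to 16761849), had 5 sites over 43 to 69 reads in replicate 2. Its single GGACA was the lowest, at 0. The GGACT at position 129 had 0.571 and 0.769 (9 and 43 reads), and a GGACC and an AGACT at positions 1688 and 1793 had 0.675 and 0.611 in replicate 2. The GGACC at position 925 had 0.0769 and 0.0851 (16 and 55 reads). Here the motif order seen over the family was turned.

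Ppp6c, the PP6 catalytic gene (chromosome 2, 39084366 to 39116463), had a GGACA with 0.167 and 0.250 (11 and 35 reads) at position 819 and a GGACT with 0.364 over 37 reads at position 1341 in replicate 2. Ppp6r1 had 5 sites from 0.107 to 0.786, over 39 to 44 reads in replicate 2. Ppp6r3 had the most sites of any regulatory gene, 9, over 25 to 33 reads, from 0 at 2 sites to 0.684. In replicate 1 the 3 Ppp6r3 sites that were listed had 5 to 9 reads and differed from replicate 2 by 0.250 to 0.625.

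Among the metal-dependent phosphatases, Ppm1g, a nuclear enzyme linked to the spliceosome (chromosome 5, 31360008 to 31378031), had 11 sites on 2 transcripts. On ENSMUST00000031032.10 the GGACA sites at positions 679 and 795 had 0.786 and 0.667, and 0.857 and 0.896 (22 reads each in replicate 1, 57 and 60 in replicate 2). The GGACT at position 930 was high as well, with 0.8 and 0.710 (18 and 46 reads), and the GGACT at position 2159 had 0.525 over 78 reads in replicate 2. AGACT at position 1949 had 0.167 and 0.130 (43 and 76 reads), AGACT at position 2286 had 0.158 and 0.333 (42 and 78 reads), and GGACC at position 847 had 0.4 and 0.226 (21 and 59 reads).

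Ppm1a, which dephosphorylates Smad proteins and stress kinases (chromosome 12, 72804229 to 72846593), had a high GGACA at position 1368, with 1 and 0.982 (19 and 62 reads). Its GGACT at position 2108 had 0.667 and 0.721 (20 and 71 reads), while the GGACT 126 nt upstream at position 1982 had 0.0909 and 0.0455 (20 and 70 reads). Its other 4 sites lay between 0.0323 and 0.321 in replicate 2. Ppm1d, a target of p53, had 2 low sites with 0.0909 and 0.0526 over 20 reads each in replicate 2, both at 0 in replicate 1. Ppm1b had 1 site at 0.700 and Ppm1f had sites at 0.647 and 0.0476, each over 22 reads.

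**Figure D3:**
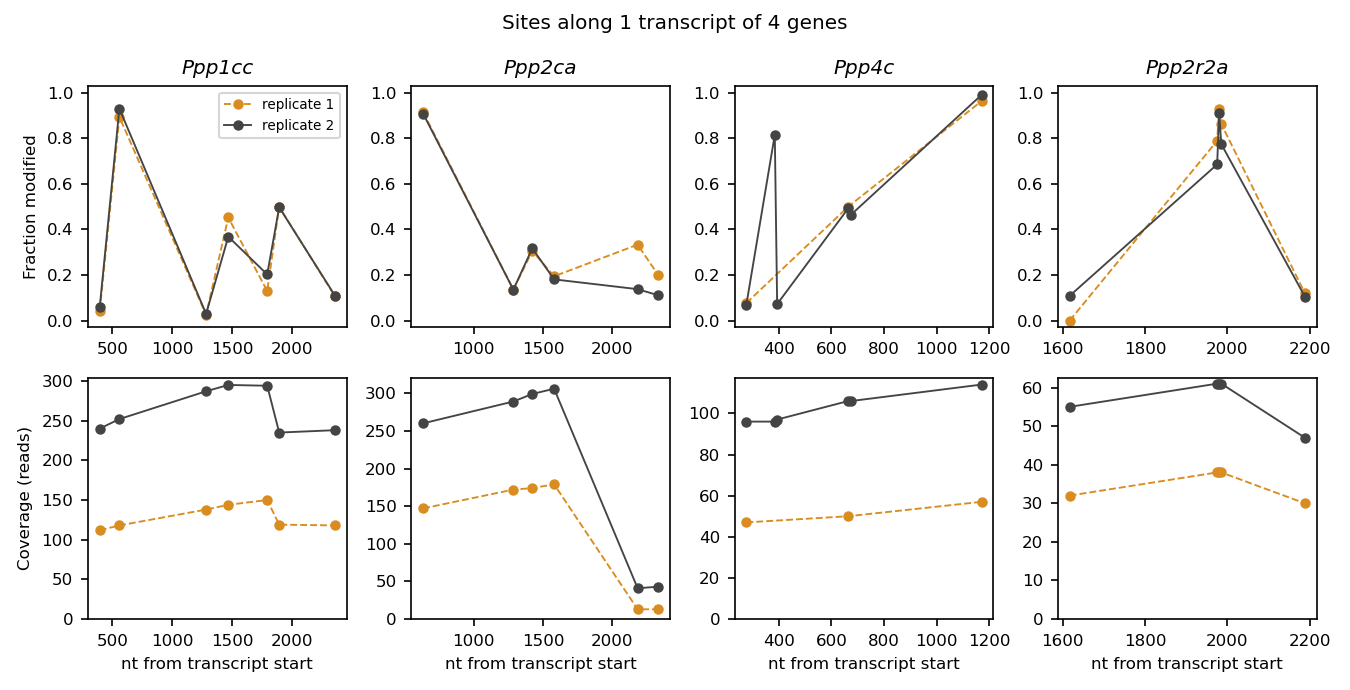
Fraction modified (top) and coverage in reads (bottom) at the sites of 1 transcript each of Ppp1cc, Ppp2ca, Ppp4c and Ppp2r2a, against distance in nt from the transcript start (orange dashed: replicate 1 where listed, grey: replicate 2). Lines join sites and are no measurement between them; Ppp2ca coverage fell from 306 to 41 reads in replicate 2 between positions 1581 and 2186.

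Neighbouring sites within 20 nt formed 9 pairs, and 6 of them (66.7%) differed by more than 0.2 in replicate 2, beside 67.7% of 718 such pairs in all genes. In Ppp4c the step from position 385 to 394 was -0.744. In Ppp2r2d the step from 1401 to 1410 was -0.462 and -0.514. The pair in Ppp4r3a went from 0.933 to 0.385. The pair in Ppp4r2, both low in replicate 2, went from 0.0833 to 0.162.

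Sites on different transcripts of a gene were paired as probable counterparts where an offset between positions recurred for the same motif. Whether paired sites are the same genomic base was not determined. The pairing gave 9 pairs in 3 genes, Ppp1cc, Ppp4c and Ppm1g. The gap between transcripts had a median of 0.0335 and a maximum of 0.171 in replicate 2. The GGACT of Ppp1cc at position 559 had 0.931 there, and its counterpart at position 481 of ENSMUST00000086294.10 had 1 (252 and 23 reads, both in replicate 2). The Ppp4c site at 1171 had 0.991 and its counterpart at 1214 of ENSMUST00000206570.1 had 0.957 (114 and 50 reads, both in replicate 2). The largest gap was in Ppm1g, where position 1922 had 0.267 and its counterpart at 1479 had 0.438. In replicate 1 these had 0.320 and 0.556 (43 and 18 reads). With 1 transcript per gene the family had 133 sites.

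Coverage along a transcript was mostly even. In replicate 2, 3 of 107 steps between adjacent sites (2.80%) went down by 1.5-fold or more towards the 3′ end, beside 1.5% of steps in all genes, and 3 (2.80%; all genes 2.51%) went up by as much. In Ppp2ca coverage was 179 and 306 reads at position 1581 and 13 and 41 at position 2186, which is 13.8-fold and 7.46-fold lower. In Ppp1r2 it went from 36 and 62 reads at position 1070 to 20 and 23 at position 2061. In Ppp1r11 it went from 62 and 117 reads at position 589 to 45 and 78 at position 661. Each step had the same direction in both libraries, and its origin was not tested.

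At the 66 sites with 20 reads in both libraries Pearson's r between libraries was 0.960 and Spearman's rho was 0.935, given as a description across sites that share libraries and transcripts. Replicate 2 was the higher at 32 sites and the lower at 34. A difference above 0.2 was found at 3 sites (4.55%), beside 5.94% of all such sites: Ppp1r8 at position 908, Ppp2r3c at position 1606 and Ppp1r11 at position 661. All 3 lay in regulatory genes (3 of 32 sites, 9.38%), against 0 of 25 catalytic and 0 of 9 metal-dependent sites. Median replicate 1 coverage of these sites was 29.5, 75 and 22 reads in that order. With so few sites no difference between classes is read from this. At the 42 sites with fewer than 20 reads in replicate 1, 8 differed by more than 0.2 (23.1% of such sites in all genes), with a median difference of 0.0965. Every replicate 1 value at a site of Ppp6r3, Ppp2r5a or Ppp2r2d rested on fewer than 20 reads. Agreement at 20 reads in both libraries could therefore not be measured for these genes, and the role of depth was not tested.

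**Figure D4:**
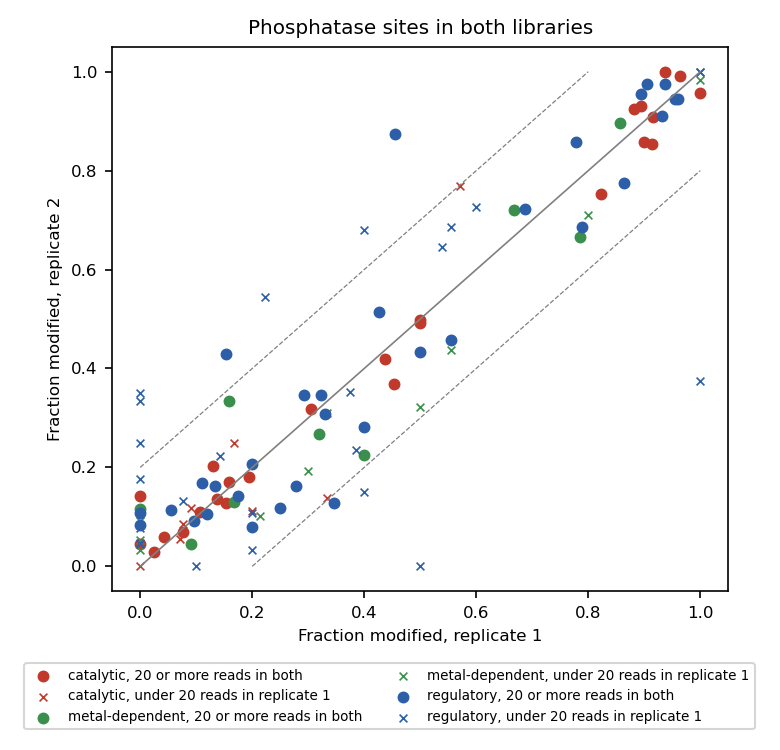
Fraction modified in replicate 1 (x axis) against replicate 2 (y axis) at the 108 sites listed in both; circles have 20 or more reads in each, crosses fewer than 20 in replicate 1, and colour gives the class. The solid line marks equality and dashed lines a difference of 0.2, which 3 of 66 circles and 8 of 42 crosses exceed.

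Of the 146 sites, 38 (26.0%) had no value in the replicate 1 table, beside 25.2% of all sites. For 10 of the 38 another position of the same transcript had at least 20 reads there (6.85% of the family's sites; 7.93% of all sites), among them Ppp4c positions 385, 394 and 675 and Ppp1r11 position 369.

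A further 21 genes were listed without a site. They were the catalytic genes Ppp1ccb, Ppp3ca and Ppp3cb, the regulatory genes Ppp1r7, Ppp1r9a, Ppp1r9b, Ppp1r10, Ppp1r12a, Ppp1r12c, Ppp1r13l, Ppp1r15a, Ppp1r15b, Ppp1r16a, Ppp1r18, Ppp1r21, Ppp2r3a, Ppp2r5b and Ppp4r1, and Ppm1l, Ppm1m and Pptc7. Ppp2r3a was listed in replicate 1 only. Ppp1r15b, a partner that directs PP1 to the translation factor eIF2 alpha, had 19 positions with at most 17 reads in replicate 2. The threshold of 20 reads left out 248 family positions in replicate 2. The 39 with 15 to 19 reads had a median of 0.444 and the 27 with 20 to 24 reads a median of 0.2.

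Of 40 other genes of phosphatase regulation, 28 were listed in replicate 2 and 17 of these (60.7%; all listed genes 48.6%) had a site there. Their 85 sites had a median of 0.308, and 31 (36.5%) reached 0.5, close to the share over all genes. The most sites were in Arpp19 (13), an inhibitor of PP2A-B55 when phosphorylated, and in Anp32e (12), Nsfl1c (9), Cip2a (7) and Set (6), the last an endogenous inhibitor of PP2A. Set had a median of 0.835 over its sites in replicate 2, with a range from 0.333 to 0.906, and 0.9 and 0.835 at the 4 of them with 20 reads in both. Bod1 and Wdr82 also had 6 sites and ranked below Set by summed coverage.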

How the data were processed

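Native poly(A) RNA of 2 libraries was sequenced with the RNA002 direct RNA kit, per the labels' protocols, with 1 µg of RNA and a run of about 48 h each. The coverage is a read count per position, and the fraction modified is a fraction from 0 to 1, both as deposited by the authors. The lowest coverage listed was 5 reads. Base caller, aligner and modification caller are not given in the sources used here. The submitters' processing notes name mm10, yet 1 of 55 family genes had a deposited start within 1000 bases of that in RefSeq's GRCm38.p6, so gene coordinates were printed as deposited and combined with no genome. Placement in coding sequence or untranslated regions was not analysed here.

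The denominator of the fraction is not stated: 38.2% and 34.3% of family values were whole multiples of 1 over the coverage, within rounding. No read counts or intervals were derived from fractions.

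Members and lists were chosen with earlier results of these data known. Named were all catalytic and metal-dependent genes with a site, the 15 regulatory genes with the most sites, the genes of the 6 highest and 6 lowest regulatory sites with 20 reads in both libraries, those of the 5 largest replicate differences, and 5 pathway genes. Other members were named for completeness. Some marker genes are not reported here, so the eye-field and forebrain lists are given in part and no identity was read from them. Classes follow the letter after the family number. The calculation of the class difference was run on simulated sites that shared a single fraction within each class. Real fractions varied widely within a class and by motif. That run therefore checks the calculation only and says nothing on the reliability of the observed difference. The family's GGACT and GGACA shares carry 95% Wilson intervals (statsmodels 0.14.6; Python 3.11.15, pandas 2.3.3, NumPy 2.4.6). Alternatives were coverage minimums of 10 and 50 reads, 1 transcript per gene, gene medians, single motifs and each library alone.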

Additional observations from a re-analysis of the deposited data

Results flagged for a closer look

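The table named minus for replicate 2 held 1 position in a phosphatase gene, a GGACA at position 231 of Ppp6c with a fraction of 1 over 6 reads. It is given because these tables lie outside the main measurement. No position listed there has fewer than 5 reads, so its read count is no test of a signal. The minus table of replicate 1 held no phosphatase gene among its 11 positions, and the plus tables analysed here do not list position 231. What sets the minus tables apart is not stated, and the origin of this value was not tested.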

How the results depend on the processing

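Counts followed the coverage minimum: 69 sites in 19 genes with 50 reads, 261 sites with 10 reads, and 66 sites in 18 genes with 20 reads in both libraries, against 146 and 34. The catalytic minus regulatory difference of 0.0607 turned to -0.0791 with 50 reads, -0.137 with 10 reads, -0.0558 without GGACA (chosen after seeing the data) and -0.0252 at all replicate 2 sites. Its mean stayed above 0 with 1 transcript per gene (0.0187), over gene medians (0.0144) and at GGACA alone (0.107), but in each of these the libraries differed in sign (0.0409 and -0.00355, -0.0003 and 0.0290, 0.224 and -0.0101). In the main setting, without each replicate in turn it was 0.0220 to 0.0993. The family median of 0.339 became 0.286 with 10 reads, 0.332 with 1 transcript per gene and 0.428 over gene medians, and ran from 0.338 to 0.340 without each replicate. By motif alone it was 0.162 at AGACT, 0.849 at GGACA, 0.266 at GGACC and 0.403 at GGACT. Sites differing by over 0.2 between libraries made up 0% with 50 reads and 10.1% with 10, against 4.55%, and r was 0.990 with 50 reads and 0.925 with 10. Beyond what fewer or more sites imply, the cause was not tested. All 20 alternative motif shares stayed within their intervals, although the order of the motifs changed. Those without replicate 1 equal the main shares by construction, since the rule defines sites on replicate 2 alone. Leaving out 1 of 2 libraries says nothing about stability.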

Other observations

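A further 13 family positions had at least 20 reads in replicate 1 and no value in the replicate 2 table analysed here, although each lay on a transcript with 24 to 295 reads at another position there. Being outside the rule, they entered none of the comparisons above. The highest was a GGACA at position 568 of Ppp1cc transcript ENSMUST00000102528.10, with 0.982 over 118 reads, 9 nt downstream of the high GGACT at 559. Its probable counterpart at position 490 of ENSMUST00000086294.10 had 0.9 over 21 reads. Ppp1cb gained 3 positions: a GGACA at 1541 with 0.763 (47 reads), an AGACT at 723 with 0.5 (38 reads) and a GGACA at 2543 with 0.290 (60 reads), so its GGACA sites were not uniformly high in replicate 1. Ppp2r1a gained a GGACC at 1788 with 0.516 over 136 reads and a GGACA at 2184 with 0.369 over 149 reads. In Ppp2cb a GGACC at 1237 had 0.0923 over 78 reads. The rest were Ppm1g 1942 (0.263), Ppm1a 1706 (0.2), Ppp2r1b 2218 (0.308), Ppp4r2 2519 (0.0500) and, in Ppp4c, position 320 of ENSMUST00000206570.1 (0), over 20 to 43 reads.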
